A study of Mus musculus with 19 samples.

Results

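Transcripts that mark neurons, astrocytes, oligodendrocytes, oligodendrocyte progenitors and the choroid plexus were measured in microglia sorted from the mouse hippocampus. The set held 37 genes of the 23951 in each deposited table: 16 neuronal, 10 astrocytic, 8 oligodendrocytic, 2 progenitor genes and the choroid plexus gene Ttr. The genes were chosen from a list drawn up with expression values (FPKM, fragments scaled to transcript length and to the mapped fragments of a library) of these same libraries already known. Each difference between groups given here is therefore a description of the libraries and not independent support for it.

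Microglia are the resident macrophages of the brain and are sorted by surface proteins such as CD11b and CD45. Neurons carry the synaptic and cytoskeletal genes of the set, astrocytes take up glutamate and express the intermediate filament Gfap when reactive, and oligodendrocytes wrap axons in myelin. Such genes are used in sorted brain populations as a gauge of RNA from other cell types, although some of them are also transcribed by microglia.

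All 15 libraries came from FACS-purified CD11b+ CD45 microglia of mice heterozygous for the tamoxifen-inducible Cx3cr1CreER allele, which targets Cre to microglia and other Cx3cr1-expressing macrophages, in 5 groups of 3 libraries. The 3-month groups were Cx3cr1CreER+/- mice with and without PU.1 fl/fl, treated with tamoxifen at 50 mg/kg on 5 days and collected 1 week later. PU.1 is the myeloid transcription factor encoded by Spi1. The 4.5-month groups were CK controls, CK-p25 mice and CK-p25 mice with PU.1 fl/fl (CK-p25 PU.1 cKO), given those tamoxifen doses when p25 was induced, 6 weeks before tissue was taken. In CK-p25 mice the Cdk5 activator p25 is induced in forebrain neurons, through a transactivator under the Camk2a promoter, and these neurons then degenerate. Whether the 3 libraries of a group are separate animals is not in the labels, and the spread between them may be partly technical.

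The sample titles and the source names of the 3-month libraries contradict each other. The titles were followed, and the groups are called labelled control and labelled PU.1 cKO. Spi1 went against the titles: it measured 409, 338 and 337 FPKM in the labelled PU.1 cKO libraries and 261, 105 and 248 in the labelled controls, and under the other reading every 3-month difference would change sign. In the 4.5-month table Spi1 values were 165, 152 and 224 FPKM in the CK-p25 PU.1 cKO libraries, 251, 208 and 298 in CK-p25, then 256, 230 and 251 in CK. Read depth is unknown in both tables. The share of genes listed at 0 was 38.7% to 42.9% at 3 months and 31.6% to 36.4% in 8 of the 9 libraries at 4.5 months, with 42.1% in CK-p25 replicate 3, the only library with another run prefix in its label.

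Summed FPKM of the 16 neuronal members at 4.5 months ran from 5.95 in CK-p25 replicate 3 to 106 in CK-p25 PU.1 cKO replicate 3, a 17.9-fold range that lay mostly within groups. It measured 14.03, 37.7 and 26.3 in the CK libraries, then 11.3, 87.6 and 5.95 in CK-p25, then 7.33, 51.0 and 106 in the CK-p25 PU.1 cKO libraries. The group means were 26.0 ± 11.9, 35.0 ± 45.7 and 54.8 ± 49.5 (SD, n = 3 each), so the SD was about as large as the mean in both p25 groups and the 3 groups overlapped. Even at its highest the neuronal sum was 0.0185% of all FPKM of a library, and at its lowest 0.000915%. In bulk RNA of this kind, fewer cells of a type and less RNA per cell cannot be told apart.

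The 10 astrocytic members summed to 61.3, 100.1 and 92.8 FPKM in CK, then 127, 539 and 129 in CK-p25, then 110, 280.2 and 322 in the CK-p25 PU.1 cKO libraries. All 6 p25 libraries were above all 3 CK libraries in this sum, of which Gfap is a part. The sum of 20 other astrocyte genes, without Gfap, overlapped: it was 160 to 215.5 FPKM in CK, with 144 in CK-p25 replicate 3 and 114 in CK-p25 PU.1 cKO replicate 1 below that range. Most of this sum in CK was the glutamine synthetase Glul. Glul was lower than CK in CK-p25 and in CK-p25 PU.1 cKO (log2 differences of -0.50 ± 0.09 and -0.83 ± 0.09, ± SE). Its part in the low sums was not tested. The 8 oligodendrocytic members summed to 118, 181 and 145 FPKM in CK, then 156, 552 and 114 in CK-p25, then 127, 331 and 396 in the CK-p25 PU.1 cKO libraries, and here the groups overlapped. CK-p25 replicate 2 and CK-p25 PU.1 cKO replicates 2 and 3 held the 3 highest values in each of the 3 classes. The highest over the lowest library came to 8.79 for the astrocytic and 4.82 for the oligodendrocytic sum, and to 25.3 without Slc1a3 and 2.59 without Mbp, the member with the highest mean of each class. In contrast, 16 microglia markers (Cx3cr1, Csf1r and C1qa among them) summed to between 38050 and 47850 FPKM, a 1.26-fold range, and none was listed at 0 in any 4.5-month library. As a share of all FPKM of a library this sum did not stay even between groups. It was 8.84% to 9.0% in CK and 6.97% to 7.63% in the p25 libraries, without overlap. Single markers moved in both directions within that sum. Against CK, 5 of the 16 passed the threshold (an adjusted p under 0.05 in limma over all tested genes) as higher and 7 as lower in CK-p25, where 31.3% of all genes passed in either direction. In CK-p25 PU.1 cKO 4 passed as higher and 9 as lower, where 31.1% of all genes passed. The homeostatic microglia genes P2ry12 and Tmem119 were lower by -2.12 ± 0.14 and -1.58 ± 0.14 in CK-p25 on the log2(FPKM + 1) scale (± SE).

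**Figure D1:**
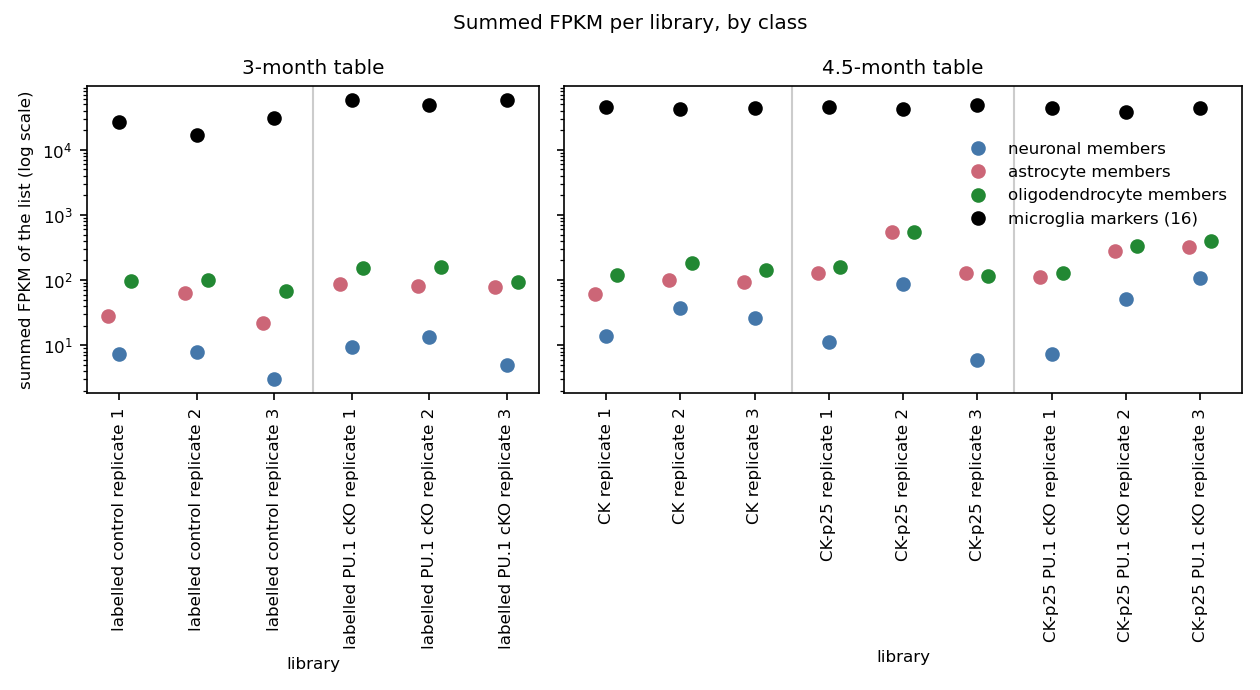
Summed FPKM (log scale) of the neuronal, astrocytic and oligodendrocytic members and of 16 microglia markers, 1 point per library, with the 3-month and 4.5-month tables in separate panels. At 4.5 months the member sums of CK-p25 replicate 2 and CK-p25 PU.1 cKO replicates 2 and 3 stand above the other libraries, while the microglia sum stays between 38050 and 47850.

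At 4.5 months 20 of the 37 members had their highest value in CK-p25 replicate 2 and 13 in CK-p25 PU.1 cKO replicate 3. Over all 10894 tested genes (mean of at least 1 FPKM), these libraries held the highest value for 8.09% and 4.58%. The classes divided between them: 9 of 10 astrocytic and 7 of 8 oligodendrocytic members peaked in CK-p25 replicate 2, and 12 of 16 neuronal members peaked in CK-p25 PU.1 cKO replicate 3. The 4 members that peaked elsewhere were Slc1a3 (CK-p25 replicate 3), Cspg4 (CK-p25 PU.1 cKO replicate 1), and Thy1 and Cldn11 (CK-p25 PU.1 cKO replicate 2).

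The order within groups was as regular. CK replicate 2 was the highest CK library for 30 of 37 members and CK replicate 1 the lowest for 30. CK-p25 replicate 2 was the highest of its group for 36, all but Slc1a3, and CK-p25 replicate 3 the lowest for 32. In CK-p25 PU.1 cKO, replicate 3 was highest for 29 members and replicate 1 lowest for 34. The 3 libraries with the high sums were also those with the fewest genes listed at 0 (31.6%, 32.6% and 31.9%), and the part of depth in this order was not tested.

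Most genes in lists of other markers of the same lineages peaked in the same libraries, while not all sums of these lists did. Of 20 other astrocyte genes 19 peaked in CK-p25 replicate 2, and of the 19 other oligodendrocyte genes not listed at 0 throughout 17 did. Of 30 other neuronal genes 16 peaked in CK-p25 PU.1 cKO replicate 3 and 7 in CK-p25 replicate 2. The summed FPKM of the other astrocyte genes was also highest in CK-p25 replicate 2 (560). That of the other oligodendrocyte genes was highest in CK-p25 replicate 3 (1716) and had a 1.61-fold range. The other neuronal sum was highest in CK-p25 PU.1 cKO replicate 3 (284), with 252, 244 and 177 in CK-p25. Endothelial and mural markers, 15 in all, peaked in CK-p25 replicate 2 for 6 genes and in CK-p25 PU.1 cKO replicate 3 for 6. None of the 16 microglia markers peaked in CK-p25 replicate 2 or in CK-p25 PU.1 cKO replicates 2 or 3.

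**Figure D2:**
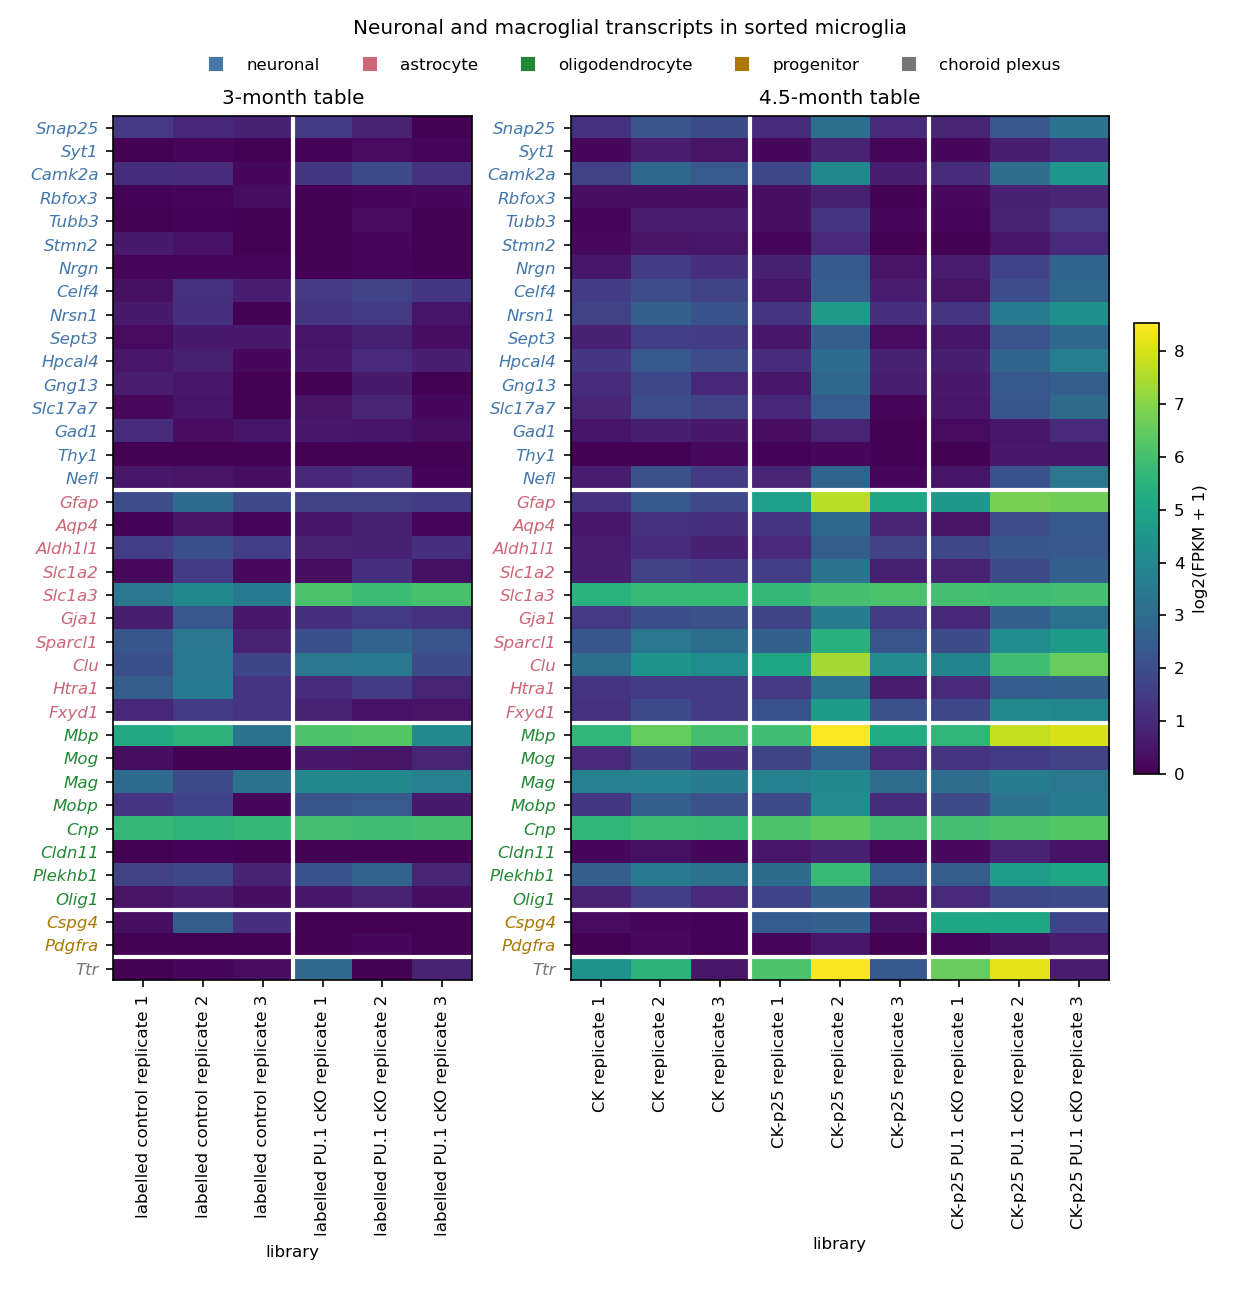
Level of each of the 37 members, as log2(FPKM + 1) in colour, in each library (columns) of the 3-month and 4.5-month tables, with gene names coloured by class. Most rows are brightest in CK-p25 replicate 2 or CK-p25 PU.1 cKO replicate 3, while Slc1a3, Cnp and Mag are nearly even across the 9 libraries at 4.5 months.

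Among the neuronal members, Nrsn1 (neurensin-1, a vesicle membrane protein of neurons) and Camk2a (a subunit of the postsynaptic kinase CaMKII) had the highest levels. Nrsn1 measured 2.17, 5.09 and 3.40 FPKM in CK, then 1.505, 23.7 and 1.21 in CK-p25, then 1.44, 10.2 and 18.6 in the CK-p25 PU.1 cKO libraries. Camk2a measured 2.24, 6.40 and 4.22 FPKM in CK, then 2.60, 14.3 and 0.655 in CK-p25, then 1.13, 7.38 and 21.6 in the CK-p25 PU.1 cKO libraries. Each p25 group thus held libraries below as well as above the CK range. Snap25, a subunit of the complex that fuses synaptic vesicles, measured 1.37, 3.71 and 2.87 FPKM in CK, then 1.11, 7.57 and 1.05 in CK-p25, then 0.836, 3.96 and 8.46 in the CK-p25 PU.1 cKO libraries.

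Slc17a7, the vesicular glutamate transporter VGLUT1, ran from 0.0980 FPKM in CK-p25 replicate 3 to 6.77 in CK-p25 PU.1 cKO replicate 3. Gad1, which makes GABA, ran from 0.0222 to 1.08 FPKM between the same libraries, and Nefl, the light neurofilament subunit, from 0.112 to 9.44. These had the widest ranges among the 14 neuronal members without a 0 (69.1-fold, 48.9-fold and 84.3-fold, in that order). The nuclear splicing factor Rbfox3 (NeuN), the tubulin Tubb3, the tubulin-binding Stmn2, the calcium sensor Syt1 and the surface glycoprotein Thy1 stayed at or below 1.69 FPKM in every 4.5-month library. Nrgn, Celf4, Sept3, Hpcal4 and Gng13 in CK-p25 PU.1 cKO replicate 3 measured between 4.98 and 11.9 FPKM. Gng13 overlaps the protein-coding gene Chtf18 and Syt1 overlaps Gm5136 in the GRCm38.p6 annotation, and since the kits do not mark strand their levels are uncertain. Chtf18 measured between 0.508 and 1.09 FPKM at 4.5 months. In the 3-month table it measured 10.3, 6.055 and 17.0 FPKM in the labelled controls and 0.61, 0.74 and 0.53 in labelled PU.1 cKO.

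In the 3-month table, whose levels are not compared with the other, the neuronal members summed to 7.34, 7.98 and 3.02 FPKM in the labelled controls and 9.44, 13.2 and 4.93 in the labelled PU.1 cKO libraries. Camk2a was the highest at 2.95 FPKM in labelled PU.1 cKO replicate 2, 9 of the 16 stayed below 1 FPKM in all 6 libraries, and Thy1 was listed at 0 in all of them. Camk2a measured 1.63, 2.95 and 1.36 FPKM in labelled PU.1 cKO against 1.18, 1.13 and 0.131 in the labelled controls. Celf4, an RNA-binding protein of neurons, measured 1.70, 2.13 and 1.60 FPKM against 0.318, 1.37 and 0.556. The groups of these genes did not overlap, and neither difference passed the threshold (log2 differences of 0.74 ± 0.36 and 0.73 ± 0.30, ± SE).

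Gfap stood out among the astrocytic members for its difference between CK and both p25 groups. It measured 1.36, 4.13 and 2.72 FPKM in CK, then 27.6, 203 and 32.0 in CK-p25, then 22.4, 109 and 102 in the CK-p25 PU.1 cKO libraries. The lowest p25 library was above the highest CK library by several-fold. On the log2(FPKM + 1) scale CK-p25 was higher than CK by 4.02 ± 0.85 and CK-p25 PU.1 cKO by 4.17 ± 0.85 (SE of a limma model over the 9 libraries), and both passed an adjusted p of 0.05. Both comparisons use the same CK libraries. CK-p25 PU.1 cKO differed from CK-p25 by 0.15 ± 0.85, with a 95% interval from -1.79 to 2.10. Without the 3 libraries with high sums, an alternative chosen after seeing the data, CK-p25 was higher than CK by 3.11, which passed. That alternative leaves CK-p25 PU.1 cKO with replicate 1 alone, which was 2.72 above CK. Its test takes the spread from the other groups and says nothing of the spread in its own. Without CK-p25 replicate 3, the library with another run prefix in its label, CK-p25 was higher than CK by 4.42.

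Gfap was also set against each of the other 9 astrocytic members within a library, a measure in which changes that scale all astrocytic genes of a library alike cancel. All 9 ratios were higher in each of the 6 p25 libraries than in each of the 3 CK libraries. The ratio of Gfap to Aqp4, the astrocytic water channel, was 3.28, 2.98 and 2.12 in CK, then 18.1, 31.4 and 35.8 in CK-p25, then 60.5, 35.6 and 25.04 in the CK-p25 PU.1 cKO libraries. The ratio to Fxyd1 (phospholemman, a regulator of the sodium pump) was 1.04, 1.51 and 1.49 in CK, then 7.90, 8.37 and 9.53 in CK-p25, then 8.48, 7.01 and 7.29 in the CK-p25 PU.1 cKO libraries. The ratio to Fxyd1 was thus nearly even among the p25 libraries, although Gfap itself spanned 22.4 to 203 FPKM in them.

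**Figure D3:**
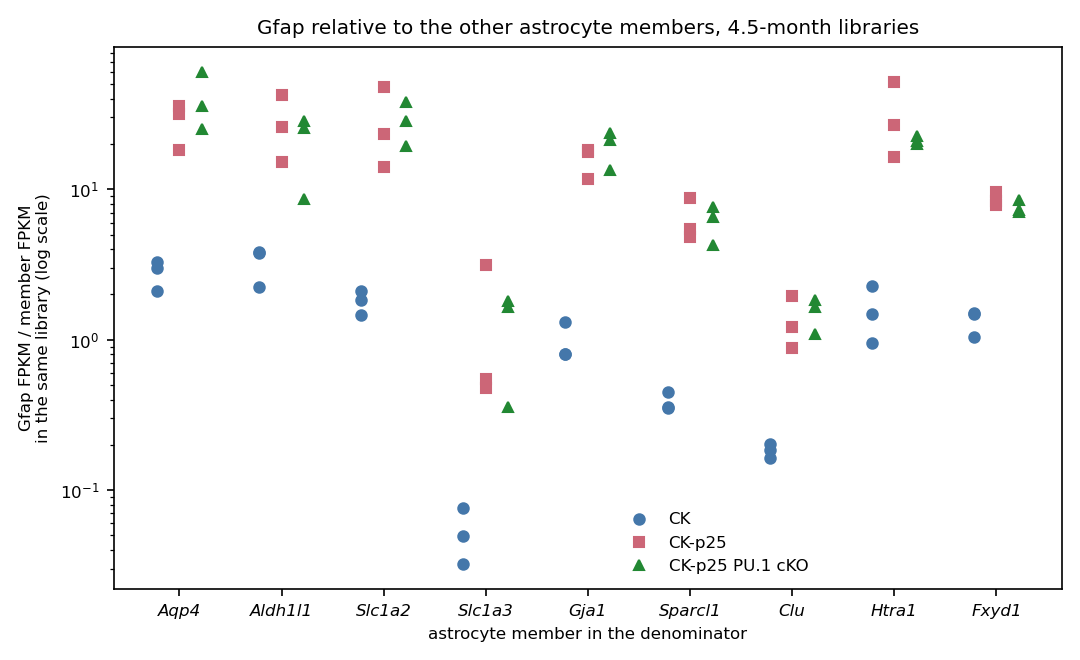
FPKM of Gfap divided by that of each of the other 9 astrocytic members in the same library (log scale), for the 9 libraries at 4.5 months, 1 point per library and 1 marker shape per group. For each denominator the 6 points of CK-p25 and CK-p25 PU.1 cKO lie above the 3 points of CK.

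At 3 months Gfap measured 3.07, 6.95 and 2.72 FPKM in the labelled controls and 2.18, 2.05 and 1.78 in labelled PU.1 cKO. The groups did not overlap, and the difference of -0.72 ± 0.32 did not pass. Aldh1l1, a folate enzyme used as a pan-astrocyte marker, measured 1.94, 3.25 and 1.99 FPKM in the labelled controls and 0.747, 0.671 and 1.28 in labelled PU.1 cKO, a difference of -0.83 ± 0.28 that did not pass either. At 4.5 months Aldh1l1 measured 0.608, 1.10 and 0.714 FPKM in CK, then 1.06, 4.76 and 2.12 in CK-p25, then 2.62, 3.83 and 4.01 in the CK-p25 PU.1 cKO libraries. All 3 CK-p25 PU.1 cKO libraries were above all CK libraries, by 1.31 ± 0.35, which passed. The call was lost when CK-p25 PU.1 cKO replicate 2 or 3, or CK replicate 1 or 3, was left out, with differences from 1.22 to 1.27.

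Slc1a3 (GLAST), a glutamate transporter, did not follow the other astrocytic members. At 4.5 months it measured 42.5, 54.0 and 54.9 FPKM in CK, then 50.5, 64.3 and 67.2 in CK-p25, then 62.8, 60.1 and 61.8 in the CK-p25 PU.1 cKO libraries. Its highest library was 1.58 times its lowest, the narrowest range of all members, against 13.4-fold for Slc1a2, the other astrocytic glutamate transporter of the set. The 3 CK-p25 PU.1 cKO libraries were above the CK libraries, by 0.29 ± 0.13, which did not pass. At 3 months Slc1a3 measured 66.6, 56.7 and 65.9 FPKM in labelled PU.1 cKO and 9.46, 14.7 and 10.8 in the labelled controls. That difference, 2.36 ± 0.20, was the largest of the 16 members tested at 3 months and passed. Microglia markers moved with it: their sum was 58130, 49340 and 57750 FPKM in labelled PU.1 cKO and 26370, 17120 and 30870 in the labelled controls. Of these markers 12 of 16 passed as higher in labelled PU.1 cKO and none as lower, where 30.1% of all genes passed in either direction. Housekeeping genes went mostly the other way: of 10, 6 passed as lower and 1 as higher. The part of these shifts in the Slc1a3 result was not tested.

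The remaining astrocytic members were highest in CK-p25 replicate 2 at 4.5 months, as the class sum was. Unlike that sum, none of them was higher in every p25 library than in every CK library. Clu (clusterin, a secreted chaperone) measured 7.42, 20.4 and 16.7 FPKM in CK, then 31.5, 167 and 16.4 in CK-p25, then 13.6, 59.4 and 93.9 in the CK-p25 PU.1 cKO libraries. Sparcl1 (hevin, a secreted matrix protein) measured 3.86, 9.18 and 7.57 FPKM in CK, then 5.09, 42.2 and 3.64 in CK-p25, then 2.95, 16.7 and 24.0 in the CK-p25 PU.1 cKO libraries. Neither separated the groups. Fxyd1 measured 1.32, 2.74 and 1.83 FPKM in CK, then 3.49, 24.2 and 3.36 in CK-p25, then 2.64, 15.5 and 14.02 in the CK-p25 PU.1 cKO libraries. Its CK-p25 libraries were above the CK range, by 1.45 ± 0.78, which did not pass. Gja1, a gap junction protein, Aqp4, Slc1a2 and the secreted protease Htra1 had their highest values in CK-p25 replicate 2, between 6.45 and 11.2 FPKM.

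The oligodendrocytic members split into genes that were nearly even over the libraries and genes that followed the library sums. Cnp, a phosphodiesterase of the myelin cytoplasm, measured 48.6, 57.2 and 56.1 FPKM in CK, then 69.4, 82.9 and 62.3 in CK-p25, then 61.9, 67.3 and 76.5 in the CK-p25 PU.1 cKO libraries. Mag, an adhesion protein of the innermost myelin membrane, measured 12.2, 12.8 and 10.9 FPKM in CK, then 12.5, 14.7 and 7.33 in CK-p25, then 7.34, 11.1 and 9.68 in the CK-p25 PU.1 cKO libraries. Mbp, the myelin basic protein, measured 48.6, 90.9 and 64.4 FPKM in CK, then 59.3, 372 and 37.5 in CK-p25, then 47.1, 214 and 261 in the CK-p25 PU.1 cKO libraries. Highest over lowest library came to 1.71 for Cnp and 9.91 for Mbp, and Mag in CK-p25 replicate 2 was 2.003 times its lowest value.

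Cnp was the only oligodendrocytic member past the threshold at 4.5 months: all CK-p25 libraries were above all CK libraries, by 0.39 ± 0.13. The call was lost under 16 of 21 alternatives, including when FPKM were rescaled to the same sum, which left a difference of 0.08. CK-p25 PU.1 cKO libraries were also all above CK, by 0.34 ± 0.13, which did not pass. Cnp overlaps Dnajc7 in the GRCm38.p6 annotation. Dnajc7 measured between 25.2 and 42.1 FPKM at 4.5 months, and reads from the stretch that the 2 genes share cannot be told apart without strand. Mog, Mobp, Plekhb1, Olig1 and Cldn11, which encode further myelin and oligodendrocyte proteins, peaked at 5.91, 16.2, 54.3 and 5.18 FPKM in CK-p25 replicate 2 and, for Cldn11, at 0.752 in CK-p25 PU.1 cKO replicate 2.

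At 3 months Mag measured 14.7, 14.9 and 12.2 FPKM in labelled PU.1 cKO and 6.92, 2.95 and 8.05 in the labelled controls. The groups did not overlap and the difference, 1.18 ± 0.32, passed. It no longer passed without any 1 of the labelled PU.1 cKO libraries or without labelled control replicate 1. Cnp measured 61.8, 59.4 and 64.0 FPKM against 50.4, 46.1 and 50.9 in the labelled controls (0.32 ± 0.15, not passed). Mbp measured 70.4, 74.9 and 16.2 FPKM against 34.8, 45.2 and 8.75, with replicate 3 low in both groups, and its groups overlapped.

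The promoters of Gfap, Slc1a3 and Mag are shown because Gfap was the only member past the threshold in both p25 groups against CK, and Slc1a3 and Mag were the only members past it at 3 months. They are RefSeq windows of 300 bases in the GRCm38.p6 build, from 250 before to 50 after the start site, written 5′ to 3′ along the gene. They lie at chr11:102897151-102897450 (minus strand, Gfap), chr15:8710758-8711057 (minus strand, Slc1a3) and chr7:30914814-30915113 (minus strand, 1 of 3 windows listed for Mag). Capitals mark the PU.1-type ETS motif GAGGAAG or its reverse complement CTTCCTC, and the TATA box TATAAA or its reverse complement TTTATA.
Gfap: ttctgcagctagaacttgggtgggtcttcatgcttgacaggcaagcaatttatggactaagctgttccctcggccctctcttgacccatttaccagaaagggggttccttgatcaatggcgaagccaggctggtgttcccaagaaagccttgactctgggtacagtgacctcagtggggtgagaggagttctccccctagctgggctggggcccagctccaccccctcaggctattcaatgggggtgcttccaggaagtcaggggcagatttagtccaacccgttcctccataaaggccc
Slc1a3: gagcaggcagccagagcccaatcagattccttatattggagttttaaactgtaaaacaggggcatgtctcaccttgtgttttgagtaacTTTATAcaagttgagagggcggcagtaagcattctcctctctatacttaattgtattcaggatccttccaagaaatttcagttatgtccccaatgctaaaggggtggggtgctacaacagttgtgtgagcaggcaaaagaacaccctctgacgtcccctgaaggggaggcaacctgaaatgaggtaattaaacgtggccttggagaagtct
Mag: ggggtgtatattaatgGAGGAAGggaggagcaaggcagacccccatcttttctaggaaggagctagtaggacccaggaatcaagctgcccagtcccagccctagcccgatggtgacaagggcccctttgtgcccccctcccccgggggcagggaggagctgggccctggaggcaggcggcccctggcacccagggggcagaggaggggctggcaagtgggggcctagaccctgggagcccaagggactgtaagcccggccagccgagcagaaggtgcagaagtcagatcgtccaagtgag

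The Mag window shown was picked because it held the ETS motif, as 2 of the 3 windows listed for Mag did. In it the motif lay on the gene's own strand. The Slc1a3 window held a TATA box on the other strand, and the Gfap window held neither motif. In all, 24 of the 37 members had windows in the table, 29 in number. The ETS motif was found in 5 of these windows, belonging to 4 members (Gja1, Mag, Plekhb1 and Rbfox3), and in 13.6% of all 32851 promoter windows. The TATA box was found in windows of 3 members (Fxyd1, Gad1 and Slc1a3) and likewise in 13.6% of all windows. No match of one motif overlapped a match of the other in the windows shown. These are matches of letters and say nothing of binding.

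Cspg4 (NG2), a proteoglycan of oligodendrocyte progenitors and of pericytes, had a library order of its own. It measured 0.229, 0.0760 and 0.0655 FPKM in CK, then 4.49, 5.27 and 0.316 in CK-p25, then 34.2, 31.3 and 2.33 in the CK-p25 PU.1 cKO libraries. Every library of both p25 groups was above every CK library. The difference of CK-p25 PU.1 cKO from CK, 3.80 ± 0.93, passed, and that of CK-p25 from CK, 1.67 ± 0.93, did not. Leaving out CK-p25 PU.1 cKO replicate 1 (3.21) or replicate 2 (3.27) ended the call. CK-p25 PU.1 cKO replicate 1, where Cspg4 was highest, was the lowest of its group for 34 of the 37 members.

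Other progenitor genes stayed low at 4.5 months. Pdgfra, the growth factor receptor of oligodendrocyte progenitors, stayed at or below 0.584 FPKM in every 4.5-month library and measured 0.0895, 0.2995 and 0.584 in the CK-p25 PU.1 cKO libraries. The 8 other progenitor genes summed to 0.818, 1.54 and 2.34 FPKM in that group, against 0.752, 1.72 and 0.723 in CK, and were lowest in replicate 1, where Cspg4 was highest. At 3 months Cspg4 was listed at 0 in all 3 labelled PU.1 cKO libraries and measured 0.267, 4.79 and 1.21 FPKM in the labelled controls. There the sum of the 8 other progenitor genes went the same way. It was 0.290, 0.294 and 0.209 FPKM in labelled PU.1 cKO and 1.94, 0.699 and 1.19 in the labelled controls. This rested mainly on Vcan (group means of 0.0318 against 0.461) and C1ql1 (0.0405 against 0.584). Gpr17, Lhfpl3 and Sox6 went the other way, as did Pdgfra (0.0484 against 0.00506). None of the 8 genes averaged 1 FPKM, so none was tested.

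Ttr encodes transthyretin, the thyroid hormone carrier secreted in bulk by the choroid plexus, and had the widest range of any member, 785-fold. It measured 19.4, 44.5 and 0.455 FPKM in CK, then 69.6, 357 and 4.09 in CK-p25, then 92.1, 288 and 0.607 in the CK-p25 PU.1 cKO libraries. Replicate 3 was the lowest library in each group, and CK-p25 PU.1 cKO replicate 3, which led the neuronal members, was the lowest p25 library for it. Group differences were 2.19 ± 2.27 for CK-p25 and 1.67 ± 2.27 for CK-p25 PU.1 cKO against CK, smaller than their error. At 3 months Ttr reached 6.59 FPKM in labelled PU.1 cKO replicate 1 and was at or below 0.752 in the other libraries.

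Of 13 other choroid plexus and ependyma genes, 9 peaked in CK-p25 replicate 2 and 3 in CK-p25 PU.1 cKO replicate 2. Enpp2 (autotaxin), named after its values were seen, measured 7.17, 9.88 and 1.25 FPKM in CK, then 32.3, 106 and 3.83 in CK-p25, then 30.0, 87.6 and 3.88 in the CK-p25 PU.1 cKO libraries, with the same low libraries as Ttr. The folate receptor Folr1, also named after its values were seen, measured 1.504, 5.46 and 1.03 FPKM in the CK-p25 PU.1 cKO libraries. The choroid plexus genes and the neuronal members thus differed in which CK-p25 PU.1 cKO library was highest.

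**Figure D4:**
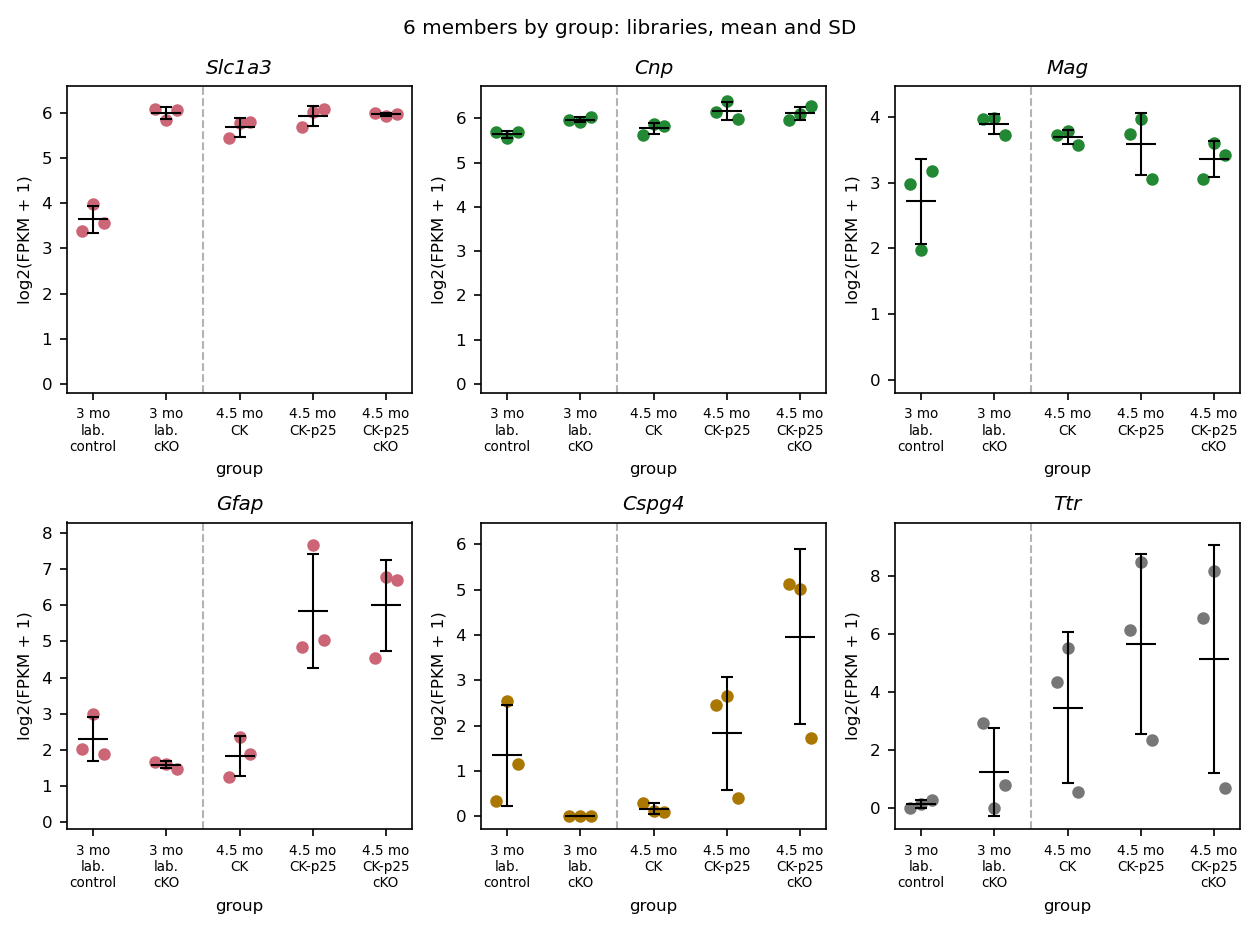
Levels of 6 members as log2(FPKM + 1) in the 5 groups, 1 point per library with the group mean and SD in black, and a dashed line between the 2 tables, whose levels were not compared. Gfap is higher in both p25 groups than in CK, Slc1a3 and Cnp are nearly even at 4.5 months, and Cspg4 and Ttr spread widely within groups.

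Proportions between the classes were not fixed. Neuronal over oligodendrocytic sum was 0.119, 0.209 and 0.181 in CK, then 0.0726, 0.159 and 0.0520 in CK-p25, then 0.0579, 0.154 and 0.268 in the CK-p25 PU.1 cKO libraries. Neuronal over astrocytic sum was 0.229, 0.377 and 0.283 in CK and lower in all CK-p25 libraries, at 0.0895, 0.163 and 0.0462, while the CK-p25 PU.1 cKO libraries, at 0.0665, 0.182 and 0.329, overlapped CK. The first ratio was lowest in CK-p25 replicate 3 and highest in CK-p25 PU.1 cKO replicate 3, the libraries with the lowest and the highest neuronal sum. In the second ratio the CK and CK-p25 libraries did not overlap, and Gfap makes up part of its denominator. With the sum of the 20 other astrocyte genes as denominator they did overlap, at 0.0877, 0.175 and 0.125 in CK and 0.0682, 0.156 and 0.0412 in CK-p25. Glul made up most of that denominator in CK and was lower in CK-p25 (log2 difference of -0.50 ± 0.09, ± SE). The part of Glul in this overlap, and that of Gfap in the separation, was not tested.

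Most tested members varied more between libraries than most tested genes, a comparison that was not matched on level. Highest over lowest library at 4.5 months had a median of 14.3 over the 29 members with a mean of at least 1 FPKM, against 1.89 over all tested genes without a 0. Of the 29, 26 lay above the 90th percentile of all genes (5.70) and 2, Slc1a3 and Cnp, below the median. At 3 months the median was 7.08 over 14 tested members without a 0, against 2.43 over all genes.

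**Figure D5:**
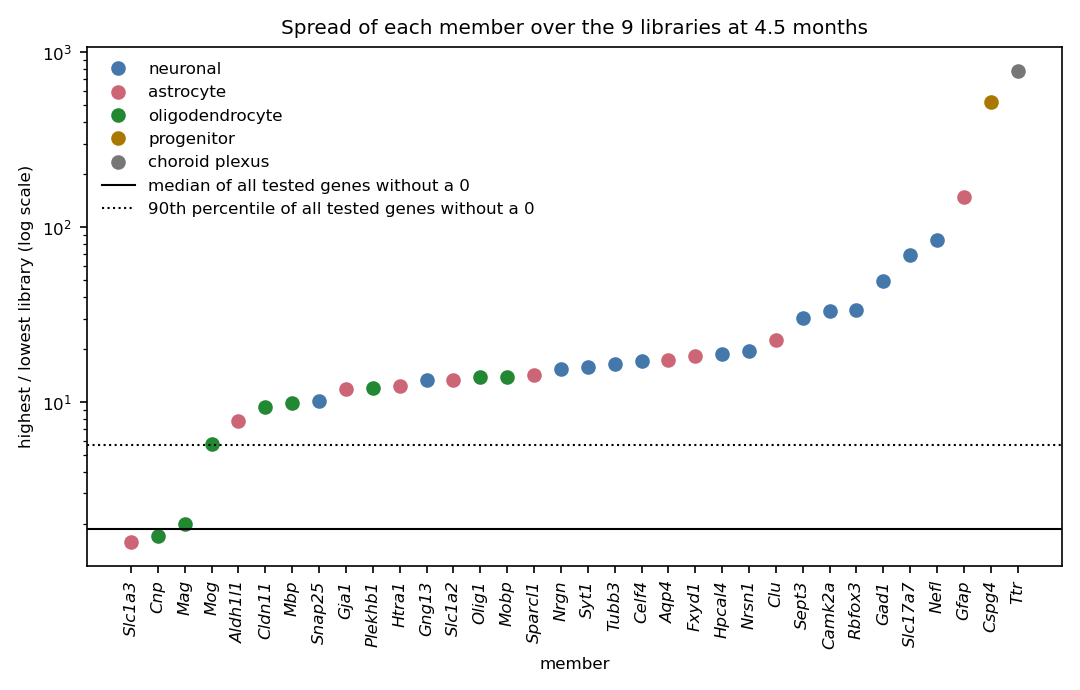
Highest over lowest library at 4.5 months (log scale) for the 34 members without a 0, ordered by that value and coloured by class, with the median (1.89, solid) and the 90th percentile (5.70, dotted) of all tested genes without a 0. Slc1a3, Cnp and Mag lie near the solid line, and Gfap, Cspg4 and Ttr at the far end.

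Counts past the threshold were small in each comparison. At 4.5 months 29 of the 37 members passed the filter on low values and were tested. In CK-p25 against CK, 2 were higher and none lower (Gfap and Cnp), where 31.3% of all genes passed in either direction, and 4 had groups that did not overlap (Gfap, Cnp, Fxyd1 and Cspg4), against 46.5% of all genes. The median difference of the tested members was 0.39, against 0.00 over all genes. In CK-p25 PU.1 cKO against CK, which shares the CK libraries, 3 were higher and none lower (Gfap, Aldh1l1 and Cspg4), where 31.1% of all genes passed, and 5 did not overlap (these and Slc1a3 and Cnp), against 58.5% of all genes. The median was 0.57. Both signs rest on the libraries with high sums: without CK-p25 replicate 2 the median in CK-p25 was -0.33, and in CK-p25 PU.1 cKO replicate 1 alone, the library left without replicates 2 and 3, it was -0.47 with no replicate check.

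In CK-p25 PU.1 cKO against CK-p25 no member passed with limma, no member had an unadjusted p under 0.05 and none separated the groups. Of all genes 0% passed and 9.38% did not overlap, and 671 had an unadjusted p under 0.05. The median difference of the members was 0.34, and all 10 tested neuronal members had a difference above 0, from 0.40 for Snap25 to 0.77 for Hpcal4. Of all 10894 genes 5518 were above 0. Each of the 10 differences was smaller than its SE, which ran from 0.63 for Nrgn to 1.03 for Nrsn1. Most of these genes peaked in CK-p25 PU.1 cKO replicate 3, so they are not 10 separate results. Without CK-p25 replicate 3 the median over the tested members was -0.11.

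At 3 months 16 of the 37 members were tested, and 2, Slc1a3 and Mag, were higher in labelled PU.1 cKO and none lower, where 30.1% of all genes passed in either direction. Groups did not overlap for 8 (5 higher: Slc1a3, Mag, Cnp, Camk2a and Celf4, and 3 lower: Gfap, Aldh1l1 and Cspg4), against 48.8% of all genes. The median difference was 0.49, against -0.03 over all genes. Since the members were chosen with these values known, nothing is read from their shares.

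Astrocyte and oligodendrocyte genes that are not members gave a few calls. Of these other genes, 14 and 13 were tested at 4.5 months. Glutamine synthetase Glul was the only other astrocyte gene past the threshold, lower than CK by -0.50 ± 0.09 in CK-p25 and -0.83 ± 0.09 in CK-p25 PU.1 cKO. Qdpr, a pterin reductase, was the only other oligodendrocyte gene past it, higher by 0.88 ± 0.11 and 0.77 ± 0.11. Like Slc1a3 and Cnp, both had similar levels within groups: Glul measured 115, 121 and 119 FPKM in CK, then 77.2, 85.8 and 87.7 in CK-p25, then 64.9, 60.0 and 73.9 in the CK-p25 PU.1 cKO libraries.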

How the data were processed

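The authors deposited 2 tables of FPKM values, one per age, each with 23951 genes. The submitters' processing notes name Cufflinks 2.0.0, TopHat, Bowtie and mm9. FPKM is scaled to mapped fragments and transcript length and is not a count, so depth is unknown and no count model was used. An exact 0 can be a failed estimate. Columns (15) were tied to samples through the descriptions in the labels, and 4 chromatin samples were not analysed here.

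Members and lists were chosen with earlier results of these data known. Each table was analysed on its own as log2(FPKM + 1), over genes averaging at least 1 FPKM (10845 at 3 months, 10894 at 4.5 months), with limma 3.58.1 in R 4.3.3 with a mean-variance trend, two-sided, Benjamini-Hochberg threshold 0.05. The scale understates changes of low genes. The fits were tested on simulated data. All members are named, other genes by the 2 largest calls per list and comparison unless said otherwise. Some results that this rule names are not reported here. Promoter windows came from RefSeq (GRCm38.p6), matched by symbol. Alternatives varied the pseudocount, filter, scaling, trend, replicate block and libraries left out.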

Additional observations from a re-analysis of the deposited data

How the results depend on the processing

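Gfap kept its direction and its call under all 21 alternatives in both p25 groups against CK, 1 of which leaves CK-p25 PU.1 cKO with 1 library, and Slc1a3 at 3 months under all 16. At 3 months 2 members passed, against 5 with quantile normalization (4 higher, 1 lower), and 1 to 3 with 1 library left out. In CK-p25 against CK 2 passed, against 1 without the filter, with median centring, quantile normalization, no mean-variance trend, or only the compared libraries, and 1 to 2 with 1 library left out. In CK-p25 PU.1 cKO against CK 3 passed, and 1 to 4 with 1 library left out. In CK-p25 PU.1 cKO against CK-p25 no member passed under any alternative, while 0 to 25 genes of all tested did with 1 library left out. Counts over all genes were 3269 at 3 months (1540 to 4731 with 1 library left out), 3412 for CK-p25 (2080 without the 3 libraries with high sums) and 3384 for CK-p25 PU.1 cKO. Without those libraries CK-p25 PU.1 cKO is replicate 1 alone, assumed to vary like the other groups, so its count of 1386 genes is not a test of that group. No member that passed changed direction. The median difference of the tested members did change sign: in CK-p25 against CK from 0.39 to -0.33 without CK-p25 replicate 2 and -0.31 without the 3 libraries, in CK-p25 PU.1 cKO against CK from 0.57 to -0.47 with replicate 1 alone, and between the p25 groups from 0.34 to -0.11 without CK-p25 replicate 3 and -0.07 with CK-p25 PU.1 cKO replicate 1 alone against 2 CK-p25 libraries. The cause of these changes was not tested.

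Whether replicate numbers pair the libraries cannot be settled with 3 libraries per group. Correlations of same-numbered libraries at 3 months were -0.0487 to 0.166, and those of other pairs between groups -0.264 to 0.12. At 4.5 months they were -0.0156 to 0.131 for same-numbered and -0.216 to 0.154 for other pairs. With a replicate block 4 members passed at 3 months (3 higher, 1 lower), 3 in CK-p25 and 4 in CK-p25 PU.1 cKO against CK, and 0 between the p25 groups. Depth is unknown, so no counting error can be given, and the order of levels under 1 FPKM is uncertain.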

Other observations

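Lymphocyte markers had a library order of their own at 4.5 months. Of 10 such genes 6 peaked in CK-p25 PU.1 cKO replicate 2, and their summed FPKM was 32.5, 30.9 and 37.8 in CK, then 22.8, 26.6 and 20.7 in CK-p25, then 7.41, 42.3 and 49.1 in the CK-p25 PU.1 cKO libraries. Endothelial and mural markers, 15 genes, summed to 35.6, 60.2 and 57.1 FPKM in CK, then 50.0, 124 and 48.1 in CK-p25, then 43.1, 104 and 97.9 in the CK-p25 PU.1 cKO libraries. The same 3 libraries that were highest for the neuronal, astrocytic and oligodendrocytic members were thus highest for the vascular genes, while CK-p25 replicate 2 was not high in the lymphocyte sum. That sum mixed genes that moved in opposite directions. In CK-p25 PU.1 cKO against CK, Cd79b was lower by -1.95 ± 0.56, which passed, while 4 of the 5 lymphocyte genes tested had a difference above 0.

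At 3 months labelled control replicate 2 held the highest value of 8 of the 10 astrocytic members, and labelled PU.1 cKO replicate 2 that of 9 of the 15 neuronal members not listed at 0 throughout. Among the oligodendrocytic members 5 of 8 peaked in labelled PU.1 cKO replicate 2.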
